A study of Homo sapiens with 6 samples.

Results

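The genes described here were the well-counted long intergenic noncoding RNAs (lincRNAs) of T84 cells, an established human colorectal cancer line. They were chosen by their read counts, as the rows of the deposited gene table with the biotype lincRNA and a mean of at least 50 raw counts over the 6 libraries. SNHG genes, GAS5, ZFAS1 and DANCR, which host small nucleolar RNAs, were left out by name. The rule gave 180 genes of 58735 in the table and of 7629 lincRNA rows, 4255 of which had no read in any library. All 180 passed the filter on low counts. The rule used the level averaged over both groups, so levels here are a description, and the contrast between the groups was not part of the choice. Of the 180, 145 had a mean of at least 50 counts in both groups. The other 35 reached that mean in 1 group only, 16 in shControl and 19 in shACSL4, and 22 of them passed the test below. Such genes entered through the group where they were high, so no total over the members is given as support for a change.

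T84 cells that received a control hairpin (shControl, genotype labelled WT) were compared with T84 cells that received a hairpin against ACSL4 (shACSL4, genotype labelled as an Acsl4 knockdown, while the series' design text speaks of a knockout), with 3 libraries in each group. ACSL4 is the enzyme that joins long-chain polyunsaturated fatty acids to coenzyme A. The labels give neither the number of hairpins nor clones, and do not say whether the libraries came from separate cultures, so p-values measure the spread between these libraries, which may be technical. The libraries were made from total RNA after ribosomal RNA had been removed and held 14740383 to 17620630 counts each, of which mitochondrial genes took 7.30 to 9.91%.

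A lincRNA is a long transcript that lies outside coding genes and is not known to be translated into protein. Some lincRNAs act in the nucleus as scaffolds of nuclear bodies or on chromatin near their own locus, others bind proteins or microRNAs in the cytoplasm, and some are mainly the precursors from which microRNAs are cut. Many are expressed in few tissues and at lower levels than messenger RNAs.

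ACSL4 itself was at 75.5, 72.2 and 72.0 CPM (counts per 1000000, scaled to a library's effective size) in shControl and at 10.3, 9.12 and 11.1 in shACSL4. Its log2 fold change, here and below shACSL4 over shControl, was -2.85 (SE 0.10, adjusted p = 3.57e-12), so 13.9% of the control level remained. The markers of colonic epithelium, among them EPCAM, KRT20 and CDX2, were all 8 detected, with a summed level of 5688 to 6837 CPM in shControl and 6853 to 8182 CPM in shACSL4. They did not move as one. By the test below KRT8, KRT18, KRT20, VIL1 and CDX1 were higher and EPCAM lower, from 1468 to 1097 CPM, while CDH1 and CDX2 did not pass. Fibroblast markers summed to 2.26 to 4.37 CPM and 2.40 to 2.68 CPM, with PDGFRA and THY1 at 0. Endothelial markers summed to 0.942 to 1.31 CPM and 0.798 to 1.08 CPM, with KDR at 0. Leukocyte markers summed to 16.6 to 28.1 CPM in shControl and 5.36 to 7.84 CPM in shACSL4. Most of that was LYZ, at a mean of 20.8 and 4.48 CPM, while CD3E was at 0 and PTPRC at 0.490 and 0.142 CPM. The part of these marker levels in the results below was not tested.

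Between the groups, 47 of the 180 lincRNAs rose and 36 fell at an adjusted p under 0.05 (edgeR's quasi-likelihood test over all genes). Over all 15694 genes tested, 47.2% passed that test, and the share among the lincRNAs was 46.1%, close to this background. Among coding genes that also had a mean of at least 50 counts it was 53.7%. Of all genes 24.0% were higher and 23.1% lower, and 26.1% of the lincRNAs were higher. Scaling moved this split: with library size alone in place of the trimmed mean of M-values (TMM), 65.6% of all calls were higher in place of 50.9%, and 66.3% of the lincRNA calls in place of 56.6%. With that scaling the median log2 fold change was 0.13 for all genes and 0.14 for the lincRNAs, in place of 0.01 and 0.02, and the changes below are relative to the TMM scale. In bulk RNA a lower level can mean fewer cells with a transcript or less of it per cell, and these cannot be told apart.

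The median absolute log2 fold change of the lincRNAs was 0.43, against 0.35 over all genes and 0.31 over the 10923 coding genes that also had a mean of at least 50. These groups were not matched on depth: the median standard error was 0.19 for the lincRNAs, 0.12 for all genes and 0.10 for those coding genes, so the wider range of the lincRNAs cannot be told apart from their larger error. Past a log2 fold change of 1 in size, 17 lincRNAs rose, 9.44% of them beside 6.86% of all genes, and 9 fell, 5.0% of them beside 5.03% of all genes. In either direction this was 14.4% of the lincRNAs, 11.9% of all genes and 7.75% of those coding genes. Of the 145 lincRNAs that had a mean of at least 50 counts in both groups, 6 rose and 5 fell by that much, so most of these large changes were in genes that entered through 1 group, and the share is given as a description. The median log2 fold change was 0.02, with the 10th and 90th percentiles at -0.70 and 0.92. The 97 lincRNAs that did not pass the test had log2 fold changes of -0.55 to 0.60.

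**Figure D1:**
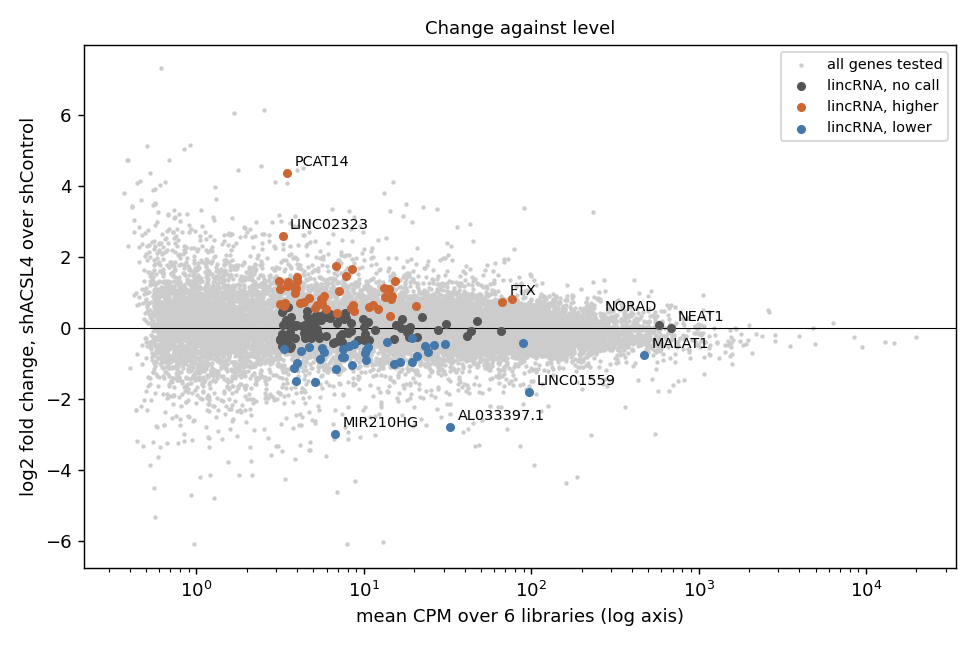
Each point is a gene tested, with its mean level over the 6 libraries in CPM (horizontal log axis) and its log2 fold change, shACSL4 over shControl (vertical axis); grey points are all 15694 genes, orange and blue points the 47 lincRNAs that rose and the 36 that fell, dark points the 97 without a call. PCAT14 lies highest among the lincRNAs at 4.38 and MIR210HG lowest at -2.99, while NEAT1 and NORAD, at high levels, lie near 0.

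The 3 libraries of each group were apart for most of the lincRNAs called. In 82 of the 83, every shACSL4 library was above or below every shControl library. Genes called with groups apart made 45.6% of the lincRNAs and 45.3% of all genes tested. Whether called or not, 53.9% of all 180 had groups that did not overlap, against 55.1% of all genes tested. The exception was AL589743.4, at 9.58, 5.96 and 13.7 CPM in shControl and 7.44, 5.30 and 4.05 CPM in shACSL4 (log2 fold change -0.80, SE 0.26, adjusted p = 0.0176). Without the third shControl library its log2 fold change was -0.49 and its adjusted p = 0.133, and it also missed the threshold without the second (0.0577) or the third (0.0848) shACSL4 library. This gene is named here after its values were seen. Precision followed depth. The 44 lincRNAs of at least 200 counts had a median standard error of 0.12, with 10 higher and 14 lower. The 136 under 200 counts had one of 0.21, with 37 higher and 22 lower, beside 24.0% higher and 23.1% lower over all genes.

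The largest fall was that of MIR210HG (ENSG00000247095, chr11:565660-568457, minus strand, GRCh38), the host transcript of miR-210, a microRNA long known as a target of hypoxia-inducible factor. It had 209, 183 and 181 counts in the shControl libraries and 19, 27 and 28 in the shACSL4 libraries. Its level fell from 12.03 ± 0.490 to 1.51 ± 0.278 CPM (SD, n = 3), a log2 fold change of -2.99 (SE 0.20, adjusted p = 3.45e-09). Every knockdown library lay far below every control library, and 12.6% of the control level remained. Its start region is shown here because the gene fell most among the 180. It can also be searched for ACGTG, a form of the core letters bound by hypoxia-inducible factor. The 300 bases below run from 250 before to 50 after the RefSeq start (GRCh38.p14, chr11:568408-568707, minus strand), and the capitals mark the 1 match to ACGTG on either strand.

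MIR210HG promoter: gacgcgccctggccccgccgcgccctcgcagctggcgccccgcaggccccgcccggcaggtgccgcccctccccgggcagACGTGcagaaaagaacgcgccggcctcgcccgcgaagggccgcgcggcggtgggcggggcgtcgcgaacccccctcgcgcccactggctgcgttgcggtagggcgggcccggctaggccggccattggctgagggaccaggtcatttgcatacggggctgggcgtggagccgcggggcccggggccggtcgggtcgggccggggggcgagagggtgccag

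The region of LINC02323, the lincRNA with the second largest rise (chr14:102545004-102545303, plus strand), is shown beside it and has no match to ACGTG. The letters GCGTG, which differ in the first base only, were not looked for and stand unmarked in both regions shown. Some other lincRNAs that rose held a match, and some that fell held none, as counted below.

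LINC02323 promoter: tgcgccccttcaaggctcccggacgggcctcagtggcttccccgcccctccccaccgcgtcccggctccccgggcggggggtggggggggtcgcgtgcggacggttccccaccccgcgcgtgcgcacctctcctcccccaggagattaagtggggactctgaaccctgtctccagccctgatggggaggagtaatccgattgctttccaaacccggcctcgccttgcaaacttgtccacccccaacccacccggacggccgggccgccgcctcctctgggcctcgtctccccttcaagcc

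RefSeq gave such a region for 73 of the lincRNAs. Of these, 25 held ACGTG on at least 1 strand, 34.2%, against 24.9% of the 27305 symbols in the whole table of promoters. Regions of lincRNAs were also richer in G and C, at a mean of 62.1% against 57.5%. The letters were found in 8 of 12 lincRNAs that fell, 8 of 22 that rose and 9 of 39 without a call. LINC-PINT and LINC00513, both among the falls, have overlapping regions that hold the same ACGTG match, so they are not independent. A lincRNA with several regions, such as LINC-PINT, counted if any of them held the letters. The GENCODE start minus the RefSeq start was -59744 bases for LINC00513 and -16568 for MIR34AHG, so those regions lie away from the start of the gene counted. A second set of letters, TGACNNNGC (N for any base), was also looked for. It was in 22 of 88 regions of the lincRNAs, 25.0%, against 13.35% of all regions. Counted by region, it was in 4 of 17 of falls, 8 of 27 of rises and 10 of 44 without a call. By the same count ACGTG was in 9, 10 and 9. All matches are of letters in a window, not sites shown to be bound.

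AL033397.1 (ENSG00000231683, chr6:53561289-53617171, minus strand) fell next. It was at 62.2, 47.6 and 62.5 CPM in shControl and at 9.17, 8.49 and 7.28 CPM in shACSL4, with a log2 fold change of -2.79 (SE 0.13, adjusted p = 6.61e-11). The groups did not overlap. This gene's body overlaps GCLC, which encodes the catalytic part of glutamate-cysteine ligase, the first enzyme of glutathione synthesis. Exons of other genes, GCLC with the largest share, cover 13.2% of the exonic bases of AL033397.1. GCLC fell by much less, from 202 ± 4.61 to 144.5 ± 6.04 CPM (log2 fold change -0.48). How reads in the shared bases were assigned is not given in the sources used here.

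LINC01559 (ENSG00000180861, chr12:13371089-13387167, minus strand) was among the 5 lincRNAs of the highest mean FPKM (fragments scaled to transcript length and depth, a level per length). Its levels were 165.5, 128 and 162 CPM in shControl and 42.5, 45.2 and 42.3 CPM in shACSL4 (log2 fold change -1.81, SE 0.10, adjusted p = 7.27e-10). The 3 knockdown libraries were closely alike, and all lay far below the lowest control. The nearest coding gene tested, GRIN2B, which encodes a glutamate receptor subunit, lay 50775 bases away and also fell (-1.06).

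The remaining 9 of the 12 largest falls had log2 fold changes of -1.53 to -0.95. AL118505.1 fell from 7.65 ± 0.614 to 2.64 ± 0.328 CPM (-1.53), BLACAT1, a transcript first named in bladder cancer, from 5.78 ± 1.29 to 2.06 ± 0.196 CPM (-1.48), and AC078923.1 from 9.33 ± 1.39 to 4.24 ± 0.361 CPM (-1.14). LEMD1, whose body overlaps that of BLACAT1, fell as well (-1.64), and so did PHLDA1, the coding gene nearest to AC078923.1 (-1.29). Exons of other genes cover 11.6% of the exonic bases of BLACAT1. The other 6 were MIR34AHG (-1.13), AC016205.1 (-1.05), AC015813.1 (-1.01), CASC9 (-0.97), FOXD2-AS1 (-0.95) and AL365181.2 (-0.95). FOXD2-AS1 was at 21.1, 22.2 and 21.4 CPM in shControl and at 11.5, 10.2 and 11.8 CPM in shACSL4. FOXD2, the forkhead factor gene 1376 bases away, had a log2 fold change of -0.17 and did not pass the test.

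PCAT14 (ENSG00000280623, chr22:23536881-23547797, plus strand), a transcript first described in prostate cancer, rose most. It had 11, 4 and 0 counts in shControl and 126, 126 and 75 in shACSL4. Its level was 0.302 ± 0.330 CPM against 6.67 ± 1.73 CPM, a log2 fold change of 4.38 (SE 0.45, adjusted p = 8.05e-07). In a library of this depth 3 counts equal 0.171 to 0.202 CPM, so the control level was close to the limit of detection and the size of the rise is poorly fixed. Without the first shControl library it was 5.60, and without the third, which had no read, 3.83. RGL4, its nearest coding gene at 140339 bases, had a log2 fold change of 0.24 and no call.

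LINC02323 (ENSG00000259230, chr14:102545254-102555826, plus strand) had 14, 14 and 16 counts in shControl and 66, 115 and 96 in shACSL4. Its level went from 0.929 ± 0.129 CPM up to 5.62 ± 1.23 CPM (log2 fold change 2.59, SE 0.28, adjusted p = 1.27e-06). The groups were well apart. ANKRD9, 35455 bases away, went the other way, from 136 ± 10.9 to 83.6 ± 8.28 CPM (-0.70).

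The remaining 10 of the 12 largest rises had log2 fold changes of 1.17 to 1.75. AC092171.3 was at 3.69, 2.07 and 3.63 CPM in shControl and at 11.2, 10.7 and 9.81 CPM in shACSL4 (1.75, SE 0.20). LINC00342 rose from 4.09 ± 0.533 to 13.0 ± 0.928 CPM (1.67), but its longest transcript is matched in full by a near-identical copy, AC092683.1, so reads of the 2 genes could have been split and its value is uncertain. LINC01234 rose from 4.16 ± 1.12 to 11.5 ± 1.66 CPM (1.47). LINC00543 lies 6767 bases from CDX2, a master transcription factor of intestinal epithelium. It rose from 2.26 ± 0.366 to 5.73 ± 0.517 CPM (1.34), while CDX2 was at 254 ± 14.03 and 288 ± 14.2 CPM and did not pass the test (0.18). GAU1 rose from 8.82 ± 0.763 to 22.0 ± 2.15 CPM (1.32). The other 5 were LINC01291 (1.45), C22orf34 (1.33), LINC01572 (1.29), PSMG3-AS1 (1.18) and AC090114.2 (1.17).

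**Figure D2:**
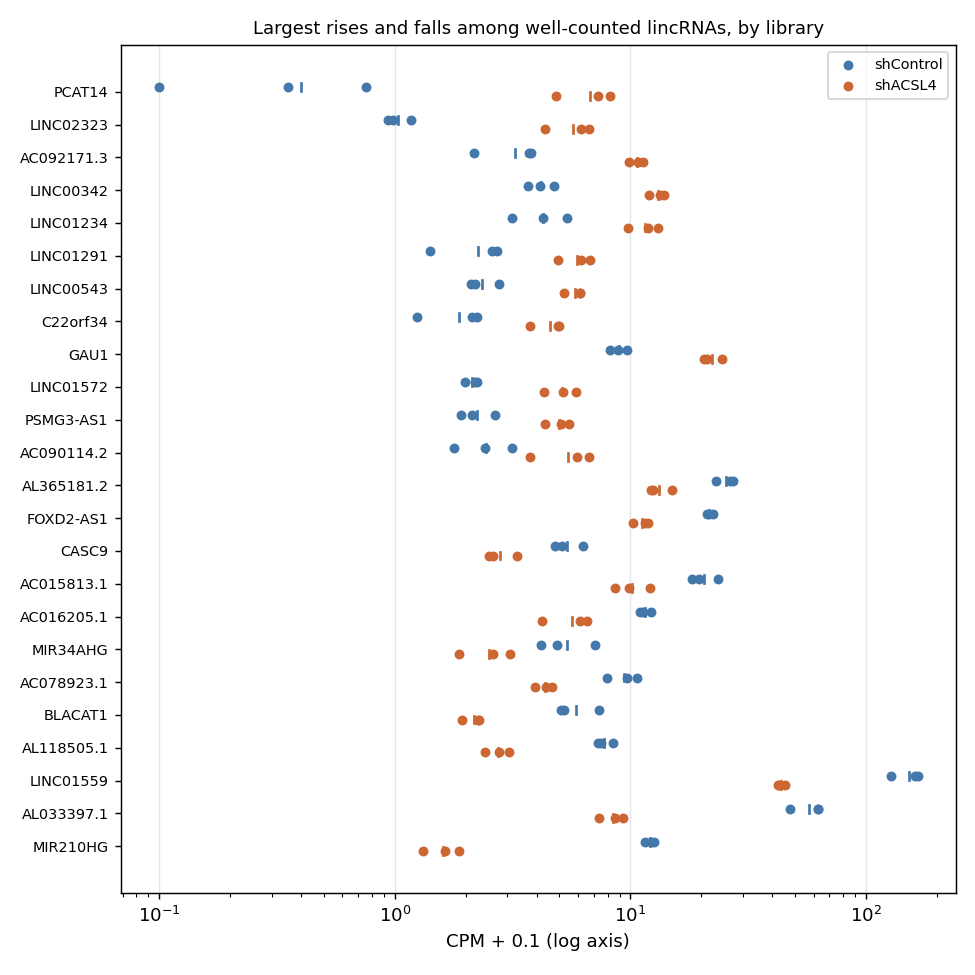
Level in each library of the 12 lincRNAs that rose most (top) and the 12 that fell most (bottom), as CPM + 0.1 on a log axis; points are libraries, blue for shControl and orange for shACSL4, and short lines are group means. In all 24 the points of the groups are apart, as the choice of these genes required, and the control point of PCAT14 at the left edge is the library with 0 counts.

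At the other end of the scale, 3 transcripts took a large part of the reads. NEAT1, MALAT1 and NORAD took 43.8 to 50.3% of the members' counts in each library, and all 180 together took 0.348 to 0.400% of a library. NORAD, which binds Pumilio proteins in the cytoplasm, had the highest level per length, at 105 ± 4.30 FPKM in shControl and 110.5 ± 10.0 FPKM in shACSL4. Its log2 fold change of 0.09 (SE 0.09, adjusted p = 0.470) did not pass the test, and 86.2% of it has a near-identical copy in OVCH1-AS1.

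MALAT1, a nuclear RNA of splicing speckles (ENSG00000251562, chr11:65497688-65506516, plus strand), fell. It was at 487, 743 and 551 CPM in shControl and at 369, 388 and 295 CPM in shACSL4 (log2 fold change -0.76, SE 0.14, adjusted p = 0.000226). The groups did not overlap, though the control libraries were widely spread. NEAT1, the scaffold of the nuclear bodies called paraspeckles, lies on the same chromosome arm (chr11:65422774-65445540, plus strand). It was at 588, 619 and 831 CPM in shControl and at 631, 678 and 729.5 CPM in shACSL4, so that the knockdown libraries all lay inside the range of the controls. Its log2 fold change was 0.00 (SE 0.12, adjusted p = 0.998).

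The 10 lincRNAs of the highest mean FPKM held 2 that rose, 5 that fell and 3 without a call. Over all genes 24.0% were higher and 23.1% lower, and so few genes are a description only. Beside MALAT1 and LINC01559, the falls were AC005392.2 (-0.69), AL035661.1 (-0.78) and AC026401.3 (-0.90). LINC02086 rose from 56.7, 56.8 and 55.0 CPM to 92.9, 99.8 and 103 CPM (0.81, SE 0.08). It lies 13351 bases from HOXB7, a homeobox gene, which had a log2 fold change of 0.14 and no call. GAU1 was the other rise, and AL049836.1 (0.29), NEAT1 and NORAD had no call.

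Of 115 RNA symbols listed by role, 63 rows were tested whatever their biotype, and 14 rose and 16 fell, with a median log2 fold change of 0.10. Over all genes 47.2% were called, 24.0% higher and 23.1% lower, and the listed RNAs were near that share. The well-counted lincRNAs held 29 of these, of which 7 rose, 8 fell and 14 had no call, with a median of 0.02. List by list, 2 of 10 tested RNAs of nuclear architecture and imprinting rose and 2 fell, and of 29 linked to carcinoma growth 9 rose and 8 fell. Of 8 linked to p53 and DNA damage 1 rose and 2 fell, and of 5 linked to hypoxia and oxidative stress 2 fell. Of 15 microRNA hosts 1 rose and 5 fell, of 3 endoderm and intestinal RNAs 1 rose, and of 6 interferon and immune RNAs 2 fell. The lists overlap, so their counts are not independent. LUCAT1, which fell, is in the carcinoma, hypoxia and interferon lists, and MIR210HG in the hypoxia and microRNA host lists.

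Among RNAs of nuclear architecture and X inactivation, FTX rose and MALAT1 fell, while NEAT1, NORAD and JPX had no call. FTX lies in the X-inactivation centre and is the host of several microRNAs. It was at 50.6, 45.3 and 55.6 CPM in shControl and at 80.6, 80.2 and 92.1 CPM in shACSL4, with no overlap (log2 fold change 0.74, SE 0.10, adjusted p = 9.78e-06). JPX, which runs the other way through the same region, was at 4.43 ± 0.385 and 5.26 ± 0.665 CPM (0.25, no call). The exons of FTX and JPX share bases. Exons of other genes cover 44.3% of the exonic bases of FTX, JPX with the largest share, and 83.6% of those of JPX. Whether the counting used strand is not given, so reads of FTX and JPX may be mixed.

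Of 15 well-counted lincRNAs linked to the growth of colorectal and other carcinomas, 4 rose and 4 fell, beside 24.0% higher and 23.1% lower over all genes. The rises were LINC01234, LINC00662 (10.3 ± 1.99 to 19.3 ± 0.230 CPM, 0.91), LINC00858 (3.26 ± 0.463 to 5.49 ± 0.579 CPM, 0.75) and LINC01133 (16.2 ± 3.02 to 25.0 ± 3.81 CPM, 0.62). The falls were BLACAT1, CASC9, LINC01315 (9.44 ± 1.34 to 5.38 ± 1.88 CPM, -0.81) and LINC02418 (35.5 ± 2.98 to 25.8 ± 1.26 CPM, -0.46). The list thus moved in no common direction.

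The other 7 of that list had no call. CRNDE, a transcript named for its rise in colorectal neoplasia, was at 6.44 ± 0.408 and 5.53 ± 0.696 CPM (-0.22, SE 0.18). PVT1, the neighbour of MYC, had a log2 fold change of -0.27, and -0.45 with an adjusted p = 0.0435 without the first shControl library. UCA1 had -0.39, and -0.53 with an adjusted p = 0.0216 without the second shControl library. ELFN1-AS1 had 0.43, and 0.55 with an adjusted p = 0.0385 without the second shACSL4 library. LINC00467 was at 0.07. CYTOR (0.02) and MIR4435-2HG (0.25) are near-identical copies of each other over 30.0% and 68.2% of their longest transcripts, so their counts are uncertain.

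RNAs linked to p53 went both ways. PURPL, a p53-induced RNA, rose from 10.1, 6.53 and 9.68 CPM to 14.5, 12.9 and 14.1 CPM (0.66, SE 0.16, adjusted p = 0.00288). MIR34AHG, the p53-responsive host of miR-34a, fell from 4.76, 4.08 and 6.99 CPM to 2.50, 1.77 and 2.97 CPM (-1.13, SE 0.26, adjusted p = 0.00210). Neither pair of groups overlapped. The lincRNA row of LINC-PINT, another p53-induced RNA, had a log2 fold change of -0.55 (SE 0.19, adjusted p = 0.0266), a call that was lost in each of 3 fits, without the first (0.0602) or the third (0.0891) shControl library and without the second shACSL4 library (0.130). A second row of the same name, of the biotype processed transcript, is no lincRNA and had a log2 fold change of -0.39 and no call (adjusted p = 0.0986). In this list 6 well-counted lincRNAs were listed, of which 1 rose and 2 fell, beside 24.0% higher and 23.1% lower over all genes.

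Of the RNAs linked to hypoxia and oxidative stress, MIR210HG was the 1 of 3 well-counted lincRNAs with a call, beside 47.2% called over all genes. EPB41L4A-AS1 was at 19.9 ± 0.819 and 24.6 ± 5.39 CPM (0.31, no call), and without the first shACSL4 library it was 0.45 with an adjusted p = 0.0132. LUCAT1, an antisense RNA of the same list and hence no lincRNA here, fell from 14.4 ± 1.14 to 1.64 ± 0.448 CPM (-3.12). BISPR, which lies next to the interferon-stimulated gene BST2, had a log2 fold change of 0.22 and no call.

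MicroRNA genes of the RefSeq entries used here lay inside 12 of the lincRNAs. These hosts held 19 microRNA genes with 30 mature microRNAs in RefSeq, and 2 hosts rose, 6 fell and 4 had no call, beside 24.0% higher and 23.1% lower over all genes. Of the 6 falls, AC016831.6 and LINC-PINT share exons and are not independent. The table does not measure mature microRNAs: of the 19 microRNA genes, 11 had no read, 5 had 1 to 12 counts in all 6 libraries together and 3 had more. The sequences below are a selection made after the hosts' values were seen: products of 4 hosts that were called, and sets that share a seed, the bases 2 to 8 by which a microRNA pairs with its targets, shown in capitals (RefSeq, GRCh38.p14). Those of MUC20-OT1 and AC016205.1, which also fell, the other products of FTX and other hairpin arms are not shown. The first 2 come from hosts that fell, MIR210HG and MIR34AHG, and the next 4 from hosts that rose, MIR194-2HG and FTX.

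hsa-miR-210-3p: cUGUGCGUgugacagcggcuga
hsa-miR-34a-5p: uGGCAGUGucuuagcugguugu
hsa-miR-192-5p: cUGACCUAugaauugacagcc
hsa-miR-194-5p: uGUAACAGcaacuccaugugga
hsa-miR-421: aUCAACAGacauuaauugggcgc
hsa-miR-374b-5p: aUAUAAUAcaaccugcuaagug

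The miR-29 family follows, whose 3 members have the same seed and came from 3 host genes, AC016831.6, LINC-PINT and MIR29B2CHG.

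hsa-miR-29a-3p: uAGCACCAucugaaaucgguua
hsa-miR-29b-3p: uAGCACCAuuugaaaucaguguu
hsa-miR-29c-3p: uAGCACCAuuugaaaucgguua

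The last pair, also with a common seed, lies in MIR222HG.

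hsa-miR-221-3p: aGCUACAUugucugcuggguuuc
hsa-miR-222-3p: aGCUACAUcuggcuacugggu

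MIR194-2HG (chr11:64889560-64893449, minus strand) carries miR-192 and miR-194-2, microRNAs abundant in intestinal epithelium. It was at 6.43, 9.79 and 11.9 CPM in shControl and at 15.1, 17.4 and 19.4 CPM in shACSL4, with no overlap (log2 fold change 0.89, SE 0.18, adjusted p = 0.000601). The neighbouring coding gene ATG2A, a lipid transfer protein of autophagy 1097 bases away, rose as well (0.44). The 3 hosts of miR-29 genes all had negative log2 fold changes. AC016831.6 fell from 7.14 ± 1.10 to 4.52 ± 0.518 CPM (-0.66, adjusted p = 0.00868), LINC-PINT is given above, and MIR29B2CHG, at 3.63, 3.33 and 4.51 CPM against 3.01, 2.79 and 2.34 CPM, had no call (-0.49, SE 0.24, adjusted p = 0.102). In the first 2, 31.6% of the exonic bases of LINC-PINT lie in exons of other genes, AC016831.6 among them, and both hosts hold the gene MIR29B1. MIR222HG, from which miR-221 and miR-222 are cut, had a log2 fold change of -0.08 and overlapping groups. MUC20-OT1 fell from 102 ± 7.35 to 75.9 ± 2.39 CPM (-0.43), and the MIR570 gene within it, with 478 counts in all, was called lower too. The counts of MUC20-OT1 are uncertain. Exons of other genes, SDHAP2 with the largest share, cover 24.1% of its exonic bases, and 53.9% of its longest transcript has a near-identical copy in SDHAP1.

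**Figure D3:**
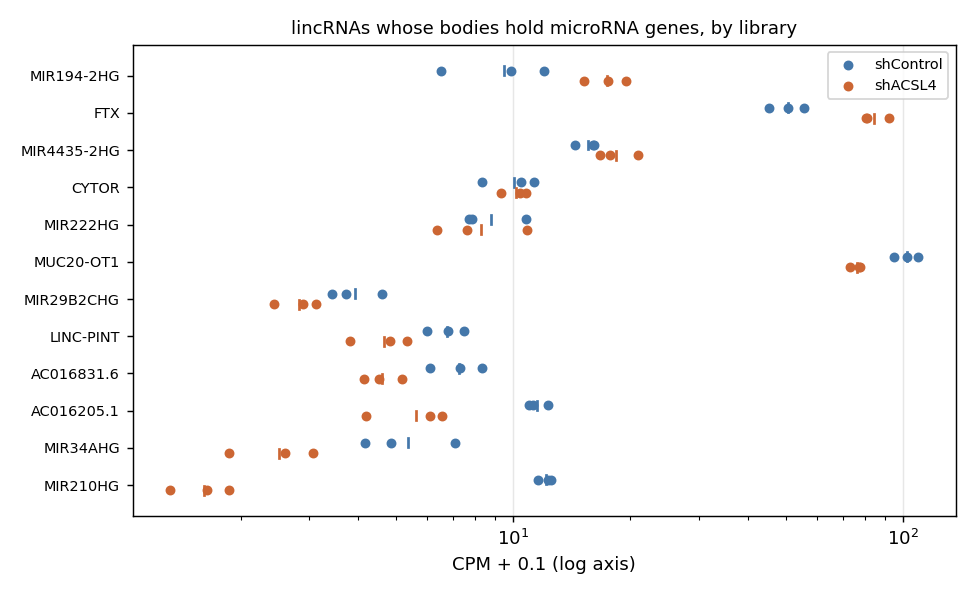
Level in each library of the 12 lincRNAs outside chromosome 8 whose bodies hold microRNA genes, as CPM + 0.1 on a log axis, ordered from the highest to the lowest log2 fold change; points are libraries, blue for shControl and orange for shACSL4, and short lines are group means. The blue and orange points of MIR194-2HG and FTX are apart with orange to the right, those of MIR210HG, at 1.51 against 12.03 CPM on average, are apart with orange to the left, and those of CYTOR and MIR222HG overlap.

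Position was not used to choose the lincRNAs, so each was set beside the nearest coding gene tested. The 180 lincRNAs had 169 such neighbours at a median distance of 5826 bases, and 32 overlapped them. Of the 169, 78 were called, 46.2%, beside 47.2% of all genes. Both genes were called in 38 pairs, which moved the same way in 25 (12 higher, 13 lower) and opposite ways in 13. Across the 180 pairs Pearson's r of the log2 fold changes was 0.20 and Spearman's rho 0.27, given as a description, since the pairs share the libraries and some share a neighbour or exons. Within the 34 pairs on opposite strands whose starts lay within 1000 bases, r was 0.03 and rho 0.14, and within the other 146 pairs r was 0.21. Gene bodies overlapped in some of the 34, among them FAM111A-DT with FAM111A and MAPKAPK5-AS1 with MAPKAPK5. Not all of the 34 thus pointed apart, and reads of overlapping pairs may be mixed.

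Of the 34 pairs that start within 1000 bases on opposite strands, 5 had both genes called, and they are named here after their values were seen. OSER1-DT (1.10) and OSER1 (0.36), FAM111A-DT (0.57) and FAM111A (0.35), and AF117829.1 (0.43) and RIPK2 (0.37) rose together. SCAMP1-AS1 rose (0.68) while SCAMP1 fell (-0.31). ZNF674-AS1 fell from 12.6 ± 0.265 to 8.69 ± 1.42 CPM (-0.53) while ZNF674, a zinc finger gene that starts 36 bases away, rose from 9.17 ± 0.401 to 20.3 ± 1.13 CPM (1.14). The calls of AF117829.1 and SCAMP1-AS1 were lost when single libraries were left out: without the first shControl library their adjusted p-values were 0.196 and 0.110. The call of AF117829.1 was also lost with DESeq2 (0.0777), median-of-ratios scaling (0.0510), no filter beyond 1 count (0.0858), log2(FPKM + 1) (0.0761) and log2(FPKM + 0.1) (0.109).

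**Figure D4:**
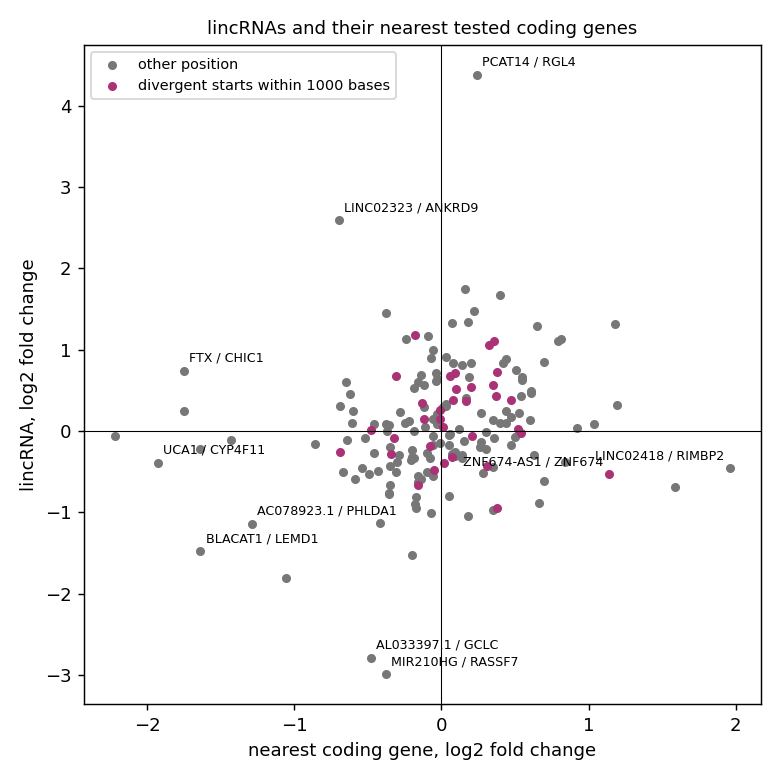
Each point is 1 of the 180 lincRNAs, with the log2 fold change of its nearest tested coding gene on the horizontal axis and its own on the vertical axis, purple where the 2 genes start within 1000 bases of each other in opposite directions. The points form a broad cloud around 0, with r of 0.20 over all pairs, and named points such as LINC02323 and ANKRD9 or ZNF674-AS1 and ZNF674 lie where the signs are opposite.

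The lincRNAs lay on 23 chromosomes. Chromosome 7 held 19, of which 7 rose and 4 fell, while 23.0% of its coding genes rose and 31.4% fell. Chromosome 12 held 18, of which 4 rose and 5 fell, while 23.9% of its coding genes rose and 32.7% fell. Chromosome 1 held 15, of which 3 rose and 6 fell, while 19.4% of its coding genes rose and 32.3% fell. Chromosome 2 held 14, of which 6 rose, 0 fell and 8 had no call by edgeR, while 29.7% of its coding genes rose and 24.9% fell. Chromosome 11 held 12, of which 5 rose and 2 fell, while 25.5% of its coding genes rose and 26.7% fell. Chromosome 6 held 11, of which 0 rose and 2 fell, while 24.4% of its coding genes rose and 28.6% fell. With so few genes a chromosome, these counts are a description and were not tested.

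Of the 180, 102 had a symbol and the other 78 were known by a clone name. Of the clone-named genes 15 rose and 19 fell, beside 24.0% higher and 23.1% lower over all genes. Exons of 51 lincRNAs merged into 1, of which 11 rose and 15 fell, beside the same shares over all genes. In 25 lincRNAs over 10% of the exonic bases lay in exons of other genes, and in 18 over 20% of the longest transcript had a near-identical copy elsewhere. Among those named here, exons of other genes covered 49.6% of EPB41L4A-AS1 (largest share EPB41L4A), 31.8% of LINC01572, 27.7% of BISPR (largest share MVB12A), 13.6% of UCA1 and 12.2% of AC092171.3. Their counts are less certain. The 141 under both limits held 40 that rose and 29 that fell, beside 24.0% higher and 23.1% lower over all genes. Beyond those named by the rule, 27 lincRNAs rose, by log2 fold changes of 0.33 to 1.13, 17 fell, at -0.88 to -0.29, and 81 had no call, at -0.55 to 0.60.

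The threshold of 50 counts cut through genes of like values. The 3 lincRNAs just inside were C22orf34 (1.33), LINC00886 (0.69) and AL035446.1 (-0.33). The 3 just outside were AC092490.1, with a mean of 49.5 counts (0.39), and AL355001.2 (0.71) and AC004816.1 (0.49), each with a mean of 48.8. The call of LINC00886 (adjusted p = 0.0253) was lost without the first (0.0706) or second (0.0699) shControl library and without the first (0.0510) or the third (0.0909) shACSL4 library. Of the 409 lincRNAs tested under that mean, 29.6% were called, 88 higher and 33 lower. The authors' deposited table, from its own test, called 38 of the 180 higher and 29 lower. All 67 were called the same way here.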

How the data were processed

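RNA-seq was analysed from 3 shControl and 3 shACSL4 libraries of T84 cells. Raw counts per gene, FPKM, group means (signal), log2 fold changes and p-values were deposited by the authors in 1 table. Per the submitters' processing notes CASAVA and HISAT2 were used with GRCh38 (hg38). The program that counted the reads, and whether it used their strand, was not given in the sources used here. All 58735 genes had the start and end of GENCODE 29. Columns named NC were taken as shControl, the only group beside shAcsl4, by number. No value column was left unmapped (0).

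The deposited counts were tested with edgeR 4.0.16 (R 4.3.3; filterByExpr, TMM, quasi-likelihood test, Benjamini-Hochberg over 15694 genes, threshold 0.05), as checked on simulated data. Far fewer genes were changed in the simulated data than were called here, so the check covers that setting only. DESeq2 1.42.0, limma 3.58.1 on counts and on log2(FPKM + 1) and log2(FPKM + 0.1), other scalings and filters, a replicate block and leaving out each library were alternatives. No 2 libraries were alike within sampling noise, with a chi-square per gene of 3.95 to 15.8 within groups. Levels between genes were compared as FPKM. Standard errors and SDs cover the spread between these libraries, which may be technical, and the limit of 3 counts covers counting error only. Exon overlap used GENCODE 29, and copies used BLAST 2.17.0 (at least 95% identity over 100 bases). Promoters and microRNAs came from RefSeq.

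Named were the 12 largest rises and falls among lincRNAs called with groups apart, the 10 of the highest FPKM, those in the RNA lists, the 3 on either side of the count threshold, and ACSL4. Members and lists were chosen with earlier results of these data known.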

Additional observations from a re-analysis of the deposited data

How the results depend on the processing

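The set itself depends on its count minimum: 352 lincRNAs had a mean of at least 20 counts and 92 one of at least 100, against 180. Of the 83 lincRNAs called, 62 (35 higher, 27 lower) stayed called in the same direction under all 15 alternatives. Between 76 and 83 were called under other tests, scalings and filters, and 69 to 82 with 1 library left out, lowest without the third shControl library. Of 55 lincRNAs named by the rule, 48 stayed on the same side of the threshold throughout and none reversed. With library size alone EPB41L4A-AS1, MIR4435-2HG and ELFN1-AS1 passed (adjusted p 0.0300, 0.0271 and 0.0301) and LINC-PINT did not (0.0945, and 0.0561 on log2(FPKM + 0.1)). On log2(FPKM + 1) folds of low genes shrink by construction: PCAT14 was 1.13 in place of 4.38, LINC02323 1.48 in place of 2.59 and MIR210HG -1.91 in place of -2.99. Depth limits genes such as PCAT14, with 0 to 11 control counts.

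With the replicate number as a block, 83 lincRNAs were called (47 higher, 36 lower) and 7414 of all genes in place of 7400, and no call of a named lincRNA changed. Deviations of same-numbered libraries correlated at 0.20, -0.05 and 0.04, and not every library correlated best with its own number, so the numbers were not taken as pairs.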
